A study of Mus musculus with 8 samples.

Results

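Described here are 53 mouse genes of mitosis, from the kinases and cyclins that end G2 to the motors that complete cytokinesis, in cells exposed to a laser and in cells that were not. The genes were taken from a named list, grouped by role into 8 sets, and found by symbol: all 53 had exactly 1 identifier among the 55359 in the deposited gene table, and all 53 passed the filter on low counts. The cells are MLO-Y4, an osteocyte-like mouse line labelled wild type and grown on collagen-coated dishes in medium with fetal and calf serum. The 4 non-irradiated libraries are called C5 to C8 and the 4 irradiated ones L5 to L8, after the numbers in the deposited table. Irradiated cells had a single 1 min exposure to a pulsed Er:YAG laser, an infrared laser of 2940 nm used in dentistry, at 6 J/cm2 with the emitter 25 cm from the bottom of a 35 mm dish. The medium was taken off before the exposure. Whether it was also taken off the non-irradiated cells is not given in the sources used here. Cells of both groups had been seeded 72 h earlier, and RNA of both was taken 6 h after irradiation and enriched for poly(A). As background, the line was derived from mice carrying the large T antigen of a simian virus under the osteocalcin promoter, and large T binds p53 and proteins of the retinoblastoma family. The labels do not say that the libraries of a group came from separate cultures, so p-values measure the spread between these libraries, which may be technical. The comparison asks how 1 laser exposure changed expression of the mitotic programme in these cells.

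Mitotic genes are switched on late in the cell cycle. Cyclin-dependent kinase 1 with cyclins A and B drives entry into mitosis, the kinetochore ties chromosomes to spindle microtubules, the spindle checkpoint delays anaphase until all are attached, and the anaphase-promoting complex (APC/C) then degrades securin and cyclin B. Transcription of these genes rests on the MuvB complex, which binds the cell cycle genes homology region (CHR) of their promoters: with p107 or p130 and E2F4 it forms the repressor DREAM, and with B-MYB and FOXM1 it activates. NF-Y, which binds CCAAT boxes, acts at many of the same promoters. Such genes are commonly read as a measure of how many cells of a culture are dividing.

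Irradiated cells had slightly less RNA from the mitotic genes. Of the 53 genes 13 fell, 0 rose and 40 did neither (quasi-likelihood test of edgeR, with p-values adjusted by Benjamini-Hochberg over the 15164 genes tested and a threshold of 0.05). Across all tested genes 6.75% fell and 8.22% rose, and among the 7302 tested genes within the members' range of mean level (23.9 to 591 CPM, which scales each count to a common library size) 9.7% fell and 13.7% rose. DESeq2 and limma-voom also called 0 members higher. The members that fell make 24.5% of the list, which was chosen with earlier results of these data known. The changes were small. The median log2 fold change of the 53 genes was -0.093, a median change of -6.2%, with quartiles of -0.152 and -0.047, against a median of -0.007 over all tested genes. The fitted change was below 0 in 47 of the 53 (88.7%), against 51.6% of all tested genes. The largest fall was that of Nusap1 (log2 fold change -0.32) and the highest value that of Anln (0.067), which did not pass the test. At an unadjusted p under 0.05, 27 members were lower (50.9%, against 13.5% of tested genes) and 1 higher. Every irradiated library lay below every non-irradiated one in 14 members (26.4%, against 8.78% of tested genes), of which 10 passed the test and 4 did not, and the groups overlapped in 3 of the 13 that fell (Bub3, Ncaph and Kif23). No member had all irradiated libraries above the non-irradiated ones, which 9.76% of tested genes did. In bulk RNA, fewer cells in G2 and mitosis and less of these RNAs per cell cannot be told apart. The count of 13 was 7 without C5, 8 without C7, 8 without L7 and 8 without L8. In this order 4.57%, 4.5%, 4.5% and 5.02% of all tested genes fell, beside 6.75% with all libraries. The count was 21 on the scale of raw library totals. That scale gave 1050 higher and 1345 lower genes over all tested genes, in place of 1247 and 1023.

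**Figure D1:**
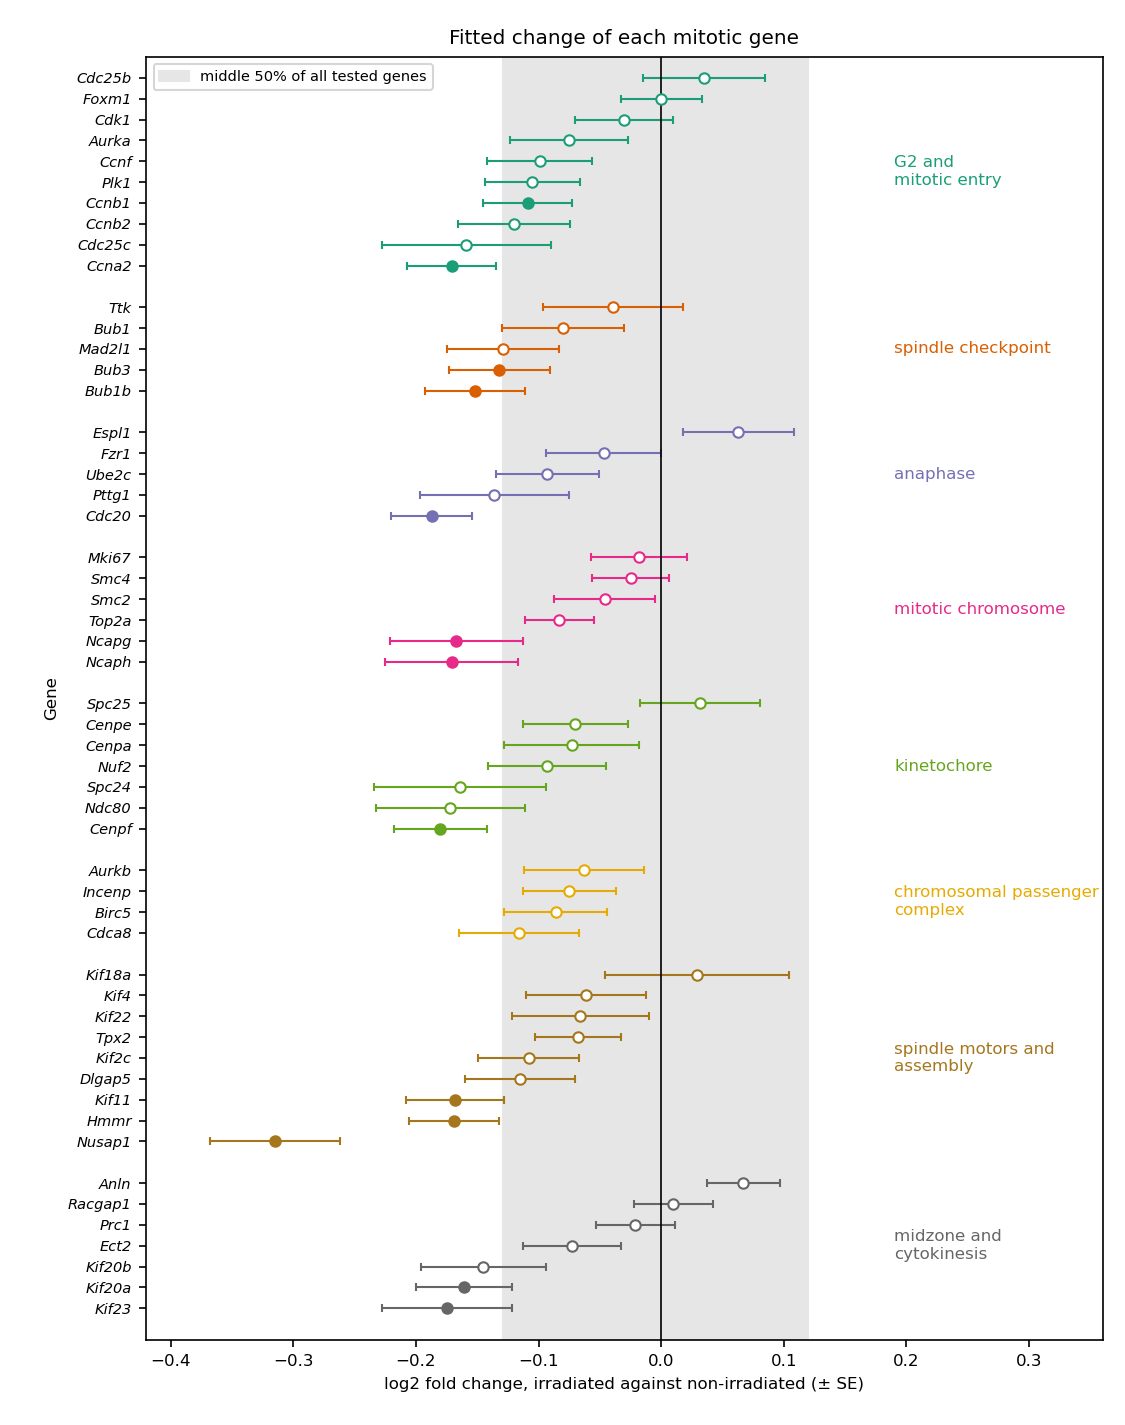
Fitted log2 fold change of each of the 53 mitotic genes (x axis, irradiated against non-irradiated, bars ± SE from edgeR, 4 libraries per group), grouped by role on the y axis. Filled points passed the test at an adjusted p under 0.05, and the grey band holds the middle 50% of all 15164 tested genes; 13 points are filled, all left of 0, and Nusap1 lies farthest left.

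Summed over the 53 genes, the level was 6831, 6760.0, 6787 and 6721 CPM in C5 to C8 and 6436, 6420.0, 6358 and 6427 CPM in L5 to L8. Every irradiated library therefore stood below every non-irradiated one, and the mean was 5.4% lower (6775 ± 46.1 against 6410.0 ± 35.5 CPM, SD, n = 4 per group). This sum is a description and was not tested. By role, the mean sum differed by -8.0% in the spindle checkpoint genes, -7.9% in spindle motors and assembly factors, -7.0% in kinetochore genes, -6.6% in anaphase genes, -5.9% in the G2 and entry genes, -5.6% in the chromosomal passenger complex, -3.9% in mitotic chromosome genes and -2.6% in the midzone and cytokinesis genes. The irradiated libraries lay below all non-irradiated ones in each of these sums except that of the mitotic chromosome genes, where L5 (1490.0 CPM) was above C8 (1483 CPM).

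**Figure D2:**
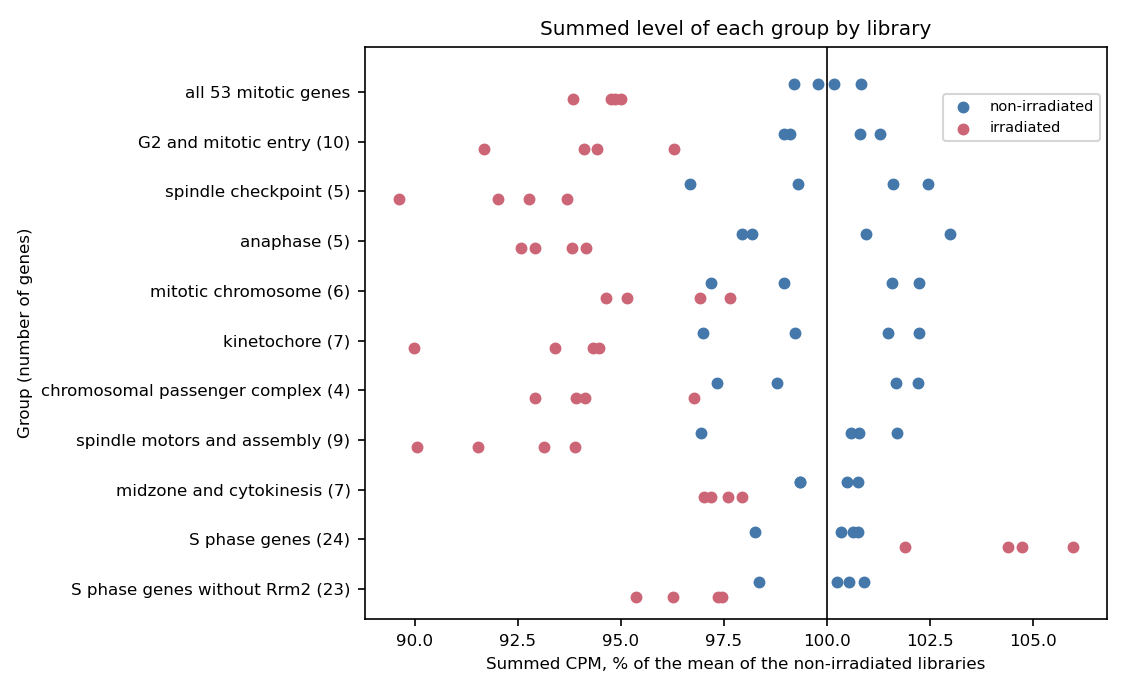
Summed CPM of all 53 mitotic genes, of each role group and of the S phase genes with and without Rrm2 (y axis, number of genes in brackets) in each library, as a percentage of the mean of the 4 non-irradiated libraries (x axis). Each point is 1 library; the mitotic sums of the irradiated libraries lie to the left, overlapping only for the mitotic chromosome genes, and the S phase sum lies to the right with Rrm2 and to the left without it.

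The promoters of these genes share letters that the list did not use. RefSeq promoter sequences (build GRCm38.p6, 250 bases before to 50 bases after the gene start) were matched by symbol for 43 of the 53 genes. The CHR was searched as TTTGAA or TTCGAA on both strands (TTCAAA is the first of these on the other strand, and TTCGAA reads alike on both), and the CCAAT box as CCAAT or, on the other strand, ATTGG; a CHR and a CCAAT match can share at most 1 base at their ends. A CHR was found in 33 of the 43 promoters (76.7%), against 16.6% of 10269 tested genes with a promoter sequence and 21.7% of all 27025 genes in that table. A CCAAT box was found in 32 (74.4%, against 43% of tested genes), both motifs in 29 (67.4%, against 6.86%) and neither in 7 (16.3%, against 48.5%). Of the 33 genes with a CHR, 31 had one whose first base lay between 50 bases before the start and the last base searched, a window chosen after the positions were seen, which held a CHR in 4.37% of tested genes with a promoter sequence. CCAAT matches were most frequent upstream of that window. Both motifs were found in 8 of the 11 genes that fell and have a promoter sequence (72.7%) and in 21 of the 32 that did not pass the test (65.6%). A match is a description of letters and not a binding site.

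**Figure D3:**
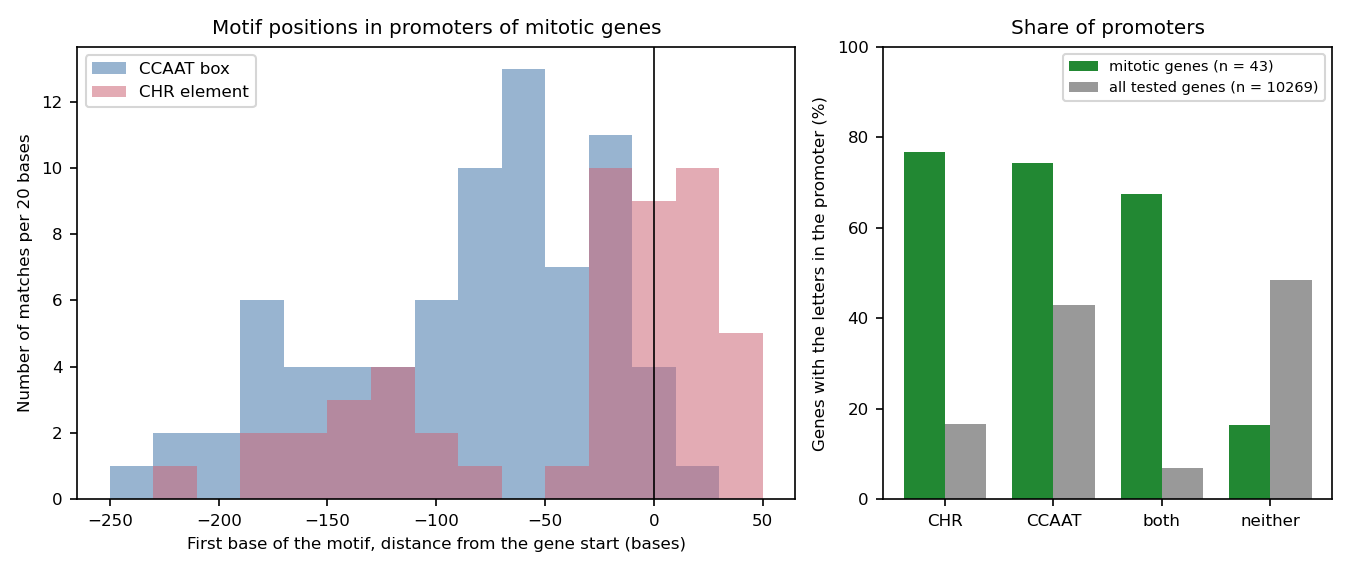
Left, number of CHR and CCAAT matches per 20 bases (y axis) by distance of their first base from the gene start (x axis) in the promoters of 43 mitotic genes. Right, share of genes (y axis, %) whose promoter holds a CHR, a CCAAT box, both or neither; green bars are the 43 mitotic genes and grey bars 10269 tested genes, and both motifs occur in 67.4% against 6.86%.

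Shown next are stretches of 10 of these promoters, from 120 bases before to 30 bases after the gene start, 5′ to 3′ on the gene's strand, in the build of the RefSeq table (GRCm38.p6, not the authors' GRCm39). Capitals mark CHR and CCAAT letters in either orientation. The first group fell and holds both motifs, with the CHR close to the start.
Cdc20 (chr4:118437314-118437463, minus strand): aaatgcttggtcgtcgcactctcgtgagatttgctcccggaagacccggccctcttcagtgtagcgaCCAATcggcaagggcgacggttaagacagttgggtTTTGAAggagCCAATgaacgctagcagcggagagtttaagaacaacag
Kif11 (chr19:37376262-37376411, plus strand): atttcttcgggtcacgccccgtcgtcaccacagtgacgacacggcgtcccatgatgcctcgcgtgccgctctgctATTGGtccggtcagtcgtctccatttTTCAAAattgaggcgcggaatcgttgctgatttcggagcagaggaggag
Hmmr (chr11:40733408-40733557, minus strand): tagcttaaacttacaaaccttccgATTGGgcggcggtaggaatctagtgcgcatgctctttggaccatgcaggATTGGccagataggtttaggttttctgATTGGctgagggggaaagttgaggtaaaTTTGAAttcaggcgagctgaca
Cenpf (chr1:189688057-189688206, minus strand): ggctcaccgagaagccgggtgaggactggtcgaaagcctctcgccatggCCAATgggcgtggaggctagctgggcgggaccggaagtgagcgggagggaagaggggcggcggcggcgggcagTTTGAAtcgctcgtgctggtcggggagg
Kif23 (chr9:61946770-61946919, minus strand): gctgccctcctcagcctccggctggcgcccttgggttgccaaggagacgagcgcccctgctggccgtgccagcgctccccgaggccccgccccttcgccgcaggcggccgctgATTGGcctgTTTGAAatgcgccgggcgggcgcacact
The next pair fell with another make-up: Ccnb1 holds CCAAT boxes and no CHR match, and Nusap1, the gene that fell most, holds neither.
Ccnb1 (chr13:100786457-100786606, minus strand): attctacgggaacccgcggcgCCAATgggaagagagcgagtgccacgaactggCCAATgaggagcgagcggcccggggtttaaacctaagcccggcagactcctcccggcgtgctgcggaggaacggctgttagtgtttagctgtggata
Nusap1 (chr2:119618178-119618327, plus strand): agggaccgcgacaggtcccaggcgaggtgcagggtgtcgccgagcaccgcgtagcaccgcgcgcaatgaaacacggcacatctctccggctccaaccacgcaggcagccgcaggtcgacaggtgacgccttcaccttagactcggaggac
The last group holds the same pairing of motifs as the first but did not pass the test; for Prc1, which has more than 1 start in the table, the first is shown.
Cdk1 (chr10:69352883-69353032, minus strand): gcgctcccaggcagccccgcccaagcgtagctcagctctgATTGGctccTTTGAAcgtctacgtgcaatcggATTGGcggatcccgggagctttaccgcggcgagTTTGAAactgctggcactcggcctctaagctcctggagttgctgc
Prc1 (chr7:80294331-80294480, plus strand): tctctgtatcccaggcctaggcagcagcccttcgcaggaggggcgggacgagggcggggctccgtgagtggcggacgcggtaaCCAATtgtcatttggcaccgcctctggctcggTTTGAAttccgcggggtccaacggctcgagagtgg
Racgap1 (chr15:99651627-99651776, minus strand): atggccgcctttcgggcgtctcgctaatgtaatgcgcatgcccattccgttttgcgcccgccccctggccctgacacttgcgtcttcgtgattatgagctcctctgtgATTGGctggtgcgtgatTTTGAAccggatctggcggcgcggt
Counting the gene start as position 1, the CHR began 18 bases before the start in Cdc20, 19 before it in Kif11 and 15 before it in Cdk1 (a second match of Cdk1 lies 71 before it), and at position 3 in Cenpf and Kif23. Matches are of letters alone, and the position of a start is that of the RefSeq table.

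The mitotic genes were well expressed in non-irradiated cells. Per kilobase of the longest annotated transcript, which puts genes of different length on 1 scale, the median level of the 53 genes was 28.9 CPM per kb, against 7.28 CPM per kb over all tested genes, and 52 of the 53 lay above that median. Top2a, the topoisomerase that untangles sister chromatids, and Cdc20, the mitotic activator of the APC/C, were highest at 116 ± 2.96 and 116 ± 3.09 CPM per kb (mean ± SD, n = 4) and did not differ beyond their spread. Ccna2 (cyclin A2) followed with 98.4 ± 4.83 CPM per kb, then the condensin subunit gene Smc4 with 71.8 ± 1.62, the cytokinetic scaffold gene Anln with 70.0 ± 1.74 and the cyclin B genes Ccnb1 and Ccnb2 with 60.8 ± 1.4 and 60.3 ± 1.96. At the low end stood the phosphatase gene Cdc25c with 9.57 ± 0.527 and the kinesin gene Kif18a, at 3.73 ± 0.344 CPM per kb. Of the 52 neighbouring pairs in this order 31 differed by no more than the larger of their SDs. Kif18a alone lay under the median of tested genes.

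Among the 10 genes of G2 and mitotic entry 2 fell and 8 missed the threshold, with a median log2 fold change of -0.102. Ccna2, the cyclin of S phase and G2, stood at 279, 308, 280.3 and 299.7 CPM in C5 to C8 and 256, 269, 255 and 257 CPM in L5 to L8. The groups did not overlap, and the level fell by 11.2% (-0.17 ± 0.036 SE on the log2 scale, edgeR adjusted p = 0.00233). Ccnb1, which encodes cyclin B1, the mitotic partner of CDK1, stood at 150.2, 149, 149.6 and 157 CPM in C5 to C8 and 144, 138, 134 and 145 CPM in L5 to L8. It fell by 7.2% without overlap (-0.11 ± 0.036 SE on the log2 scale, edgeR adjusted p = 0.0494), a call at the edge of the threshold. It was lost with any library left out except C6 (adjusted p 0.0516 without L8 to 0.189 without L7). The kinase gene Cdk1 itself stood at 144, 143, 155 and 146 CPM in C5 to C8 and 147, 147, 134 and 149 CPM in L5 to L8, where L7 alone was low (-0.030 ± 0.040 SE on the log2 scale, edgeR adjusted p = 0.706). Foxm1, the transcription factor that activates late mitotic genes, gave 184 ± 5.11 against 184 ± 2.19 CPM (SD), a fitted difference that rounds to 0 (SE 0.033, edgeR adjusted p = 0.995). Plk1, the polo kinase of mitotic entry and centrosome maturation, gave 129 ± 3.8 against 120.2 ± 4.66 CPM (SD), with -0.10 ± 0.039 SE on the log2 scale, edgeR adjusted p = 0.0746. Ccnb2, the second B cyclin, gave 92.3 ± 3.01 against 84.9 ± 4.94 CPM (SD) with -0.12 ± 0.046 SE on the log2 scale, edgeR adjusted p = 0.0897, and passed the test without L8 (adjusted p = 0.0437). Ccnf, an F-box protein gene, did not pass the test (-0.10) although its groups did not overlap. The Aurora A kinase gene Aurka had a log2 fold change of -0.075. The phosphatases that activate CDK1 differed in sign, with -0.16 for Cdc25c and 0.035 for Cdc25b.

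Among the 5 spindle checkpoint genes 2 fell and 3 missed the threshold, and all 5 fitted changes were below 0 (median -0.129). Bub1b encodes BUBR1, part of the complex that inhibits CDC20. Its levels were 114, 107, 109 and 112 CPM in C5 to C8 and 103, 103, 96.6 and 95.1 CPM in L5 to L8. The groups did not overlap and it fell by 10.0% (-0.15 ± 0.041 SE on the log2 scale, edgeR adjusted p = 0.0143). Bub3, the adaptor that brings BUB1 and BUBR1 to the kinetochore, gave 139.5, 131, 145 and 144 CPM in C5 to C8 and 126, 132, 132 and 121 CPM in L5 to L8. It fell by 8.7% (-0.13 ± 0.041 SE on the log2 scale, edgeR adjusted p = 0.0359), and C6 lay within the irradiated range. The call of Bub1b was lost when C5, L7 or L8 was left out (adjusted p 0.0566 to 0.0659). That of Bub3 was lost with any library left out except C6 and L6 (adjusted p 0.0514 without L7 to 0.132 without L8). Mad2l1, whose product MAD2 holds CDC20 in the checkpoint complex, gave 92.7 ± 3.43 against 84.8 ± 4.44 CPM (SD), with -0.13 ± 0.046 SE on the log2 scale, edgeR adjusted p = 0.0648. The kinase genes Bub1 and Ttk had log2 fold changes of -0.080 and -0.039.

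Among the 5 anaphase genes 1 fell and 4 missed the threshold (median -0.093). Cdc20, the target that the checkpoint proteins inhibit, gave 208, 200.5, 214 and 207 CPM in C5 to C8 and 184, 184, 176 and 186 CPM in L5 to L8. All irradiated libraries were below all non-irradiated ones, and it fell by 12.2% (-0.19 ± 0.033 SE on the log2 scale, edgeR adjusted p = 0.000523). Its call held without each library in turn (adjusted p up to 0.00506). Fzr1, the activator that replaces CDC20 at mitotic exit, gave 85.0 ± 3.56 against 82.3 ± 4.12 CPM (SD) with -0.047 ± 0.047 SE on the log2 scale, edgeR adjusted p = 0.575. Ube2c, the ubiquitin-conjugating enzyme of the APC/C, had a log2 fold change of -0.093, and Pttg1, which encodes securin, one of -0.14. Espl1, the gene of separase, the protease that securin restrains, was the anaphase gene above 0 (0.063, SE 0.045, edgeR adjusted p = 0.409).

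Among the 6 genes of mitotic chromosome structure 2 fell and 4 missed the threshold (median -0.064). The pair that fell encodes subunits of condensin I, which compacts mitotic chromosomes. Ncaph, its kleisin subunit, gave 57.0, 53.7, 57.0 and 60.0 CPM in C5 to C8 and 47.9, 48.7, 54.3 and 51.6 CPM in L5 to L8, and fell by 11.2% (-0.17 ± 0.054 SE on the log2 scale, edgeR adjusted p = 0.0375). In Ncaph the groups overlapped, since C6 was lower than L7. Ncapg, a HEAT-repeat subunit, gave 46.1, 46.9, 47.5 and 44.5 CPM in C5 to C8 and 44.2, 41.4, 39.1 and 40.1 CPM in L5 to L8, without overlap, and fell by 10.9% (-0.17 ± 0.054 SE on the log2 scale, edgeR adjusted p = 0.0434). Both calls depended on single libraries. That of Ncaph was lost with any library left out except C6 and L7 (adjusted p 0.0617 without L8 to 0.128 without C8), and that of Ncapg with any except C8 and L5 (0.067 without C6 to 0.145 without L7). The core condensin subunits, the ATPases Smc2 and Smc4, had log2 fold changes of -0.046 and -0.025 (edgeR adjusted p = 0.534 and 0.679). Top2a gave 619.8, 618, 606 and 586 CPM in C5 to C8 and 576, 557, 585 and 579 CPM in L5 to L8. Its groups did not overlap, and it just missed the threshold (-0.083 ± 0.028 SE on the log2 scale, edgeR adjusted p = 0.0568), which it passed without C8 (adjusted p = 0.0325). Mki67, the gene of the proliferation marker Ki-67 that coats mitotic chromosomes, gave 372, 379.5, 359 and 352 CPM in C5 to C8 and 391, 348, 366 and 341 CPM in L5 to L8, with L5 the highest of the 8 libraries (-0.018 ± 0.039 SE on the log2 scale, edgeR adjusted p = 0.828).

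Among the 7 kinetochore genes 1 fell and 6 missed the threshold (median -0.093). Cenpf, a large outer kinetochore and nuclear matrix protein gene, gave 178, 181, 165 and 164 CPM in C5 to C8 and 156, 151, 152 and 149 CPM in L5 to L8. Its groups did not overlap and it fell by 11.8% (-0.18 ± 0.038 SE on the log2 scale, edgeR adjusted p = 0.00246), with an adjusted p of at most 0.0196 when any 1 library was left out. The NDC80 complex, the microtubule-binding arm of the kinetochore, has 4 subunits, whose fitted values differed in sign. Ndc80 gave 41.4 ± 2.36 against 36.8 ± 2.31 CPM (SD), with -0.17 ± 0.061 SE on the log2 scale, edgeR adjusted p = 0.0665, and Spc24, Nuf2 and Spc25 had log2 fold changes of -0.16, -0.093 and 0.032. The centromeric histone gene Cenpa had -0.073 and the kinesin gene Cenpe -0.070.

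Of the 4 genes of the chromosomal passenger complex 0 passed the test (edgeR quasi-likelihood), and 1 had an unadjusted p under 0.05. With DESeq2 and with limma-voom 0 passed as well. This complex, the Aurora B kinase with its partners, corrects wrong attachments and later works at the midzone. Birc5, which encodes survivin, gave 107, 101, 109 and 104 CPM in C5 to C8 and 98.7, 106, 97.5 and 95.2 CPM in L5 to L8 (-0.086 ± 0.042 SE on the log2 scale, edgeR adjusted p = 0.195). Cdca8, the gene of borealin, gave 62.0 ± 2.67 against 57.2 ± 2.11 CPM (SD), with -0.12 ± 0.049 SE on the log2 scale, edgeR adjusted p = 0.127. Incenp and Aurkb had log2 fold changes of -0.075 and -0.063. All 4 values were below 0 and the groups overlapped in all 4.

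Among the 9 genes of spindle motors and assembly factors 3 fell and 6 missed the threshold (median -0.108). Nusap1, a microtubule-binding protein that bundles spindle fibres around chromosomes, gave 58.5, 50.7, 55.7 and 56.0 CPM in C5 to C8 and 43.7, 45.4, 43.7 and 44.8 CPM in L5 to L8. The irradiated libraries lay close together and well below the others, and the fall of 19.6% was the largest of the 53 genes (-0.32 ± 0.053 SE on the log2 scale, edgeR adjusted p = 0.000288). Hmmr, a spindle protein gene that also carries the name of a hyaluronan receptor, gave 135, 145, 144 and 143 CPM in C5 to C8 and 124, 126, 123 and 130.4 CPM in L5 to L8, and fell by 11.1% (-0.17 ± 0.037 SE on the log2 scale, edgeR adjusted p = 0.00314). Kif11, the kinesin that pushes the spindle poles apart, gave 127, 117, 122 and 126 CPM in C5 to C8 and 106, 108, 109.7 and 115 CPM in L5 to L8, and fell by 11.0% (-0.17 ± 0.040 SE on the log2 scale, edgeR adjusted p = 0.00624). In Nusap1, Hmmr and Kif11 the groups did not overlap, and the calls held without each library in turn (adjusted p up to 0.036, for Kif11). Kif2c, the microtubule-depolymerizing kinesin of centromeres, and Dlgap5, a spindle-stabilizing protein gene, did not pass the test (-0.11 and -0.12, edgeR adjusted p = 0.0857 and 0.1) although their groups did not overlap. Tpx2, the activator of Aurora A on the spindle, had -0.068, and the chromosome-bound kinesins Kif22 and Kif4 had -0.066 and -0.061. Kif18a, which dampens chromosome movements and was the member with the lowest level, had 0.029.

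Among the 7 genes of the midzone and cytokinesis 2 fell and 5 missed the threshold (median -0.073). Kif20a, a kinesin of the central spindle, gave 199.7, 189, 206 and 210.5 CPM in C5 to C8 and 178, 172, 182 and 188 CPM in L5 to L8, without overlap, and fell by 10.5% (-0.16 ± 0.039 SE on the log2 scale, edgeR adjusted p = 0.00757). Kif23, the motor subunit of centralspindlin, gave 86.9, 76.3, 83.0 and 81.0 CPM in C5 to C8 and 75.7, 77.6, 67.9 and 68.7 CPM in L5 to L8. It fell by 11.4% (-0.17 ± 0.053 SE on the log2 scale, edgeR adjusted p = 0.0295), with C6 inside the irradiated range, and lost its call without C5, C7, C8, L7 or L8 (adjusted p 0.0583 to 0.13). Kif20a kept its call without each library in turn (adjusted p up to 0.0349). The partner of KIF23 in centralspindlin, Racgap1, gave 190.0, 187, 189.7 and 189 CPM in C5 to C8 and 183, 195, 192 and 191 CPM in L5 to L8 (0.010 ± 0.032 SE on the log2 scale, edgeR adjusted p = 0.895). Ect2, the exchange factor that centralspindlin recruits to activate RhoA, had a log2 fold change of -0.073, and Prc1, the bundler of midzone microtubules, -0.021. Kif20b gave 75.1 ± 5.17 against 67.9 ± 1.87 CPM (SD), with -0.14 ± 0.051 SE on the log2 scale, edgeR adjusted p = 0.0602, and passed the test without C8 (adjusted p = 0.0363). Anln, the scaffold of the contractile ring, gave 332, 324, 321 and 312 CPM in C5 to C8 and 344, 329, 343 and 334 CPM in L5 to L8, the highest fitted value of the 53 genes (0.067 ± 0.030 SE on the log2 scale, edgeR adjusted p = 0.155), and was the 1 member above 0 at an unadjusted p under 0.05.

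**Figure D4:**
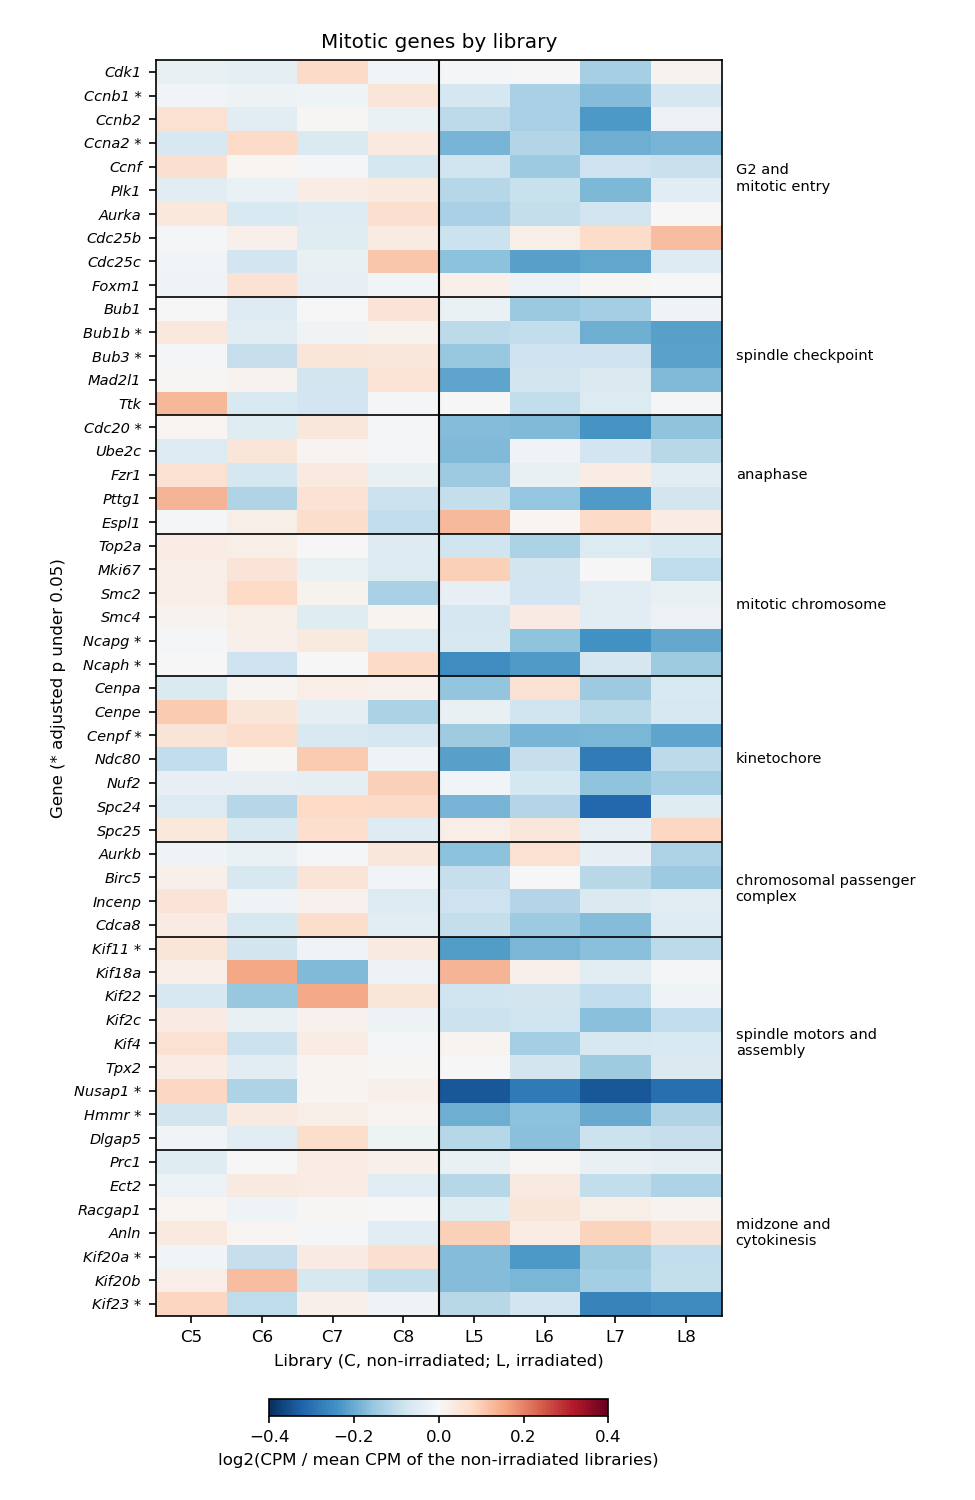
Level of each of the 53 mitotic genes (rows, by role; * adjusted p under 0.05) in each library (columns), as log2 of CPM over the mean CPM of the non-irradiated libraries; blue is lower and red higher. The row of Nusap1 is the darkest blue in L5 to L8, and Anln, Espl1 and Cdc25b are among the few rows with red in the irradiated libraries.

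**Figure D5:**
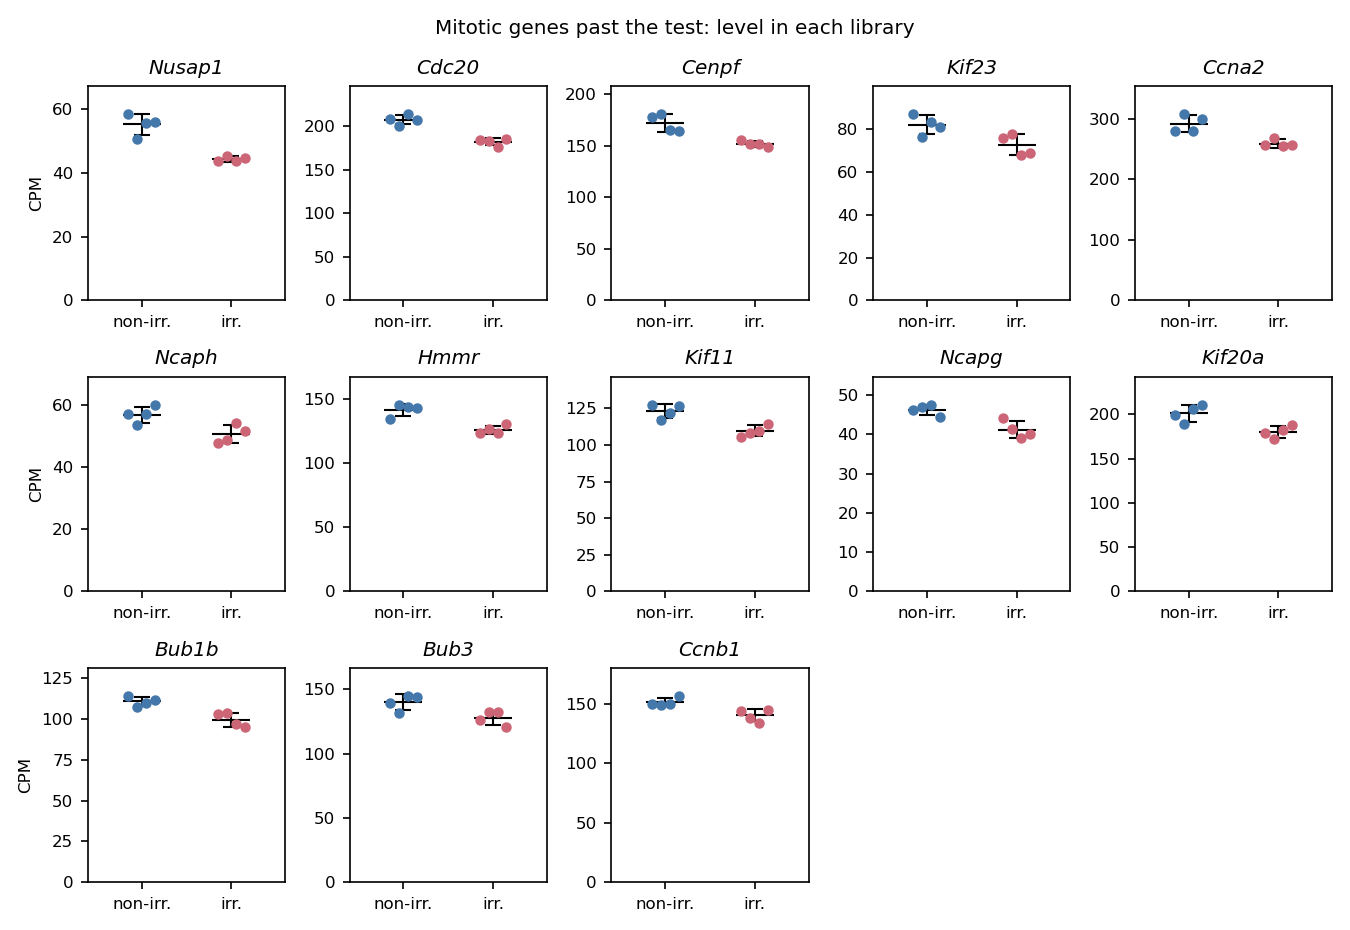
CPM (y axis, from 0) of the 13 genes that fell, in the 4 non-irradiated and 4 irradiated libraries; each point is 1 library and bars are mean ± SD. The points of the groups overlap in Bub3, Ncaph and Kif23 and are separate in the other 10 genes.

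Across the 13 genes that fell, 7 kept their calls under each of the 16 alternatives run, 8 of which left out 1 library: Ccna2, Cdc20, Cenpf, Kif11, Nusap1, Hmmr and Kif20a. Bub1b kept its call under 13 of the 16, Kif23 under 10, Ncaph under 9, Bub3 and Ncapg under 8 and Ccnb1 under 4. With limma-voom the calls of Ccnb1 and Bub3 were lost (limma-voom adjusted p = 0.0583 and 0.0532). Whether counting used strand is not given in the sources used here, and 5 of the 13 share exon sequence with a gene on the opposite strand in GENCODE M21: Ccna2 with Exosc9, Cdc20 with Elovl1, Kif20a with Cdc23, Ncapg with Lcorl and Nusap1 with Oip5. Reads that fall in the shared sequence of such a pair cannot be told apart by position without strand. The fitted log2 fold changes of these neighbours were -0.06, -0.086, -0.004, 0.003 and -0.234, and they missed the threshold (edgeR adjusted p 0.291 to 0.992). Their part in the result was not tested. The other 8 genes that fell share no exon with another annotated gene.

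Further genes of the mitotic machinery and its regulators were taken from lists that do not hold the 53. Over 7 lists 159 genes were tested, of which 19 fell (11.9%) and 8 rose, with a median log2 fold change of -0.029. Of all tested genes 6.75% fell and 8.22% rose. Within the members' range of mean level these shares were 9.7% and 13.7%. Among 18 regulators of mitotic entry and exit 5 fell (27.8%) and 1 rose. Mastl, the Greatwall kinase gene that keeps a phosphatase off during mitosis, gave 49.3 ± 1.56 against 41.3 ± 1.45 CPM (SD), with log2 fold change -0.26, edgeR adjusted p = 0.00166. Cks2, a CDK-binding subunit gene, fell (log2 fold change -0.20, edgeR adjusted p = 0.0161) and Cdc25a, the phosphatase of S phase entry, rose (log2 fold change 0.20, edgeR adjusted p = 0.0245). The call of Cks2 was lost when C7, L7 or L8 was left out (adjusted p 0.0528 to 0.0654) and Cdc25a without C6, C7, L5 or L8 (0.0514 to 0.0889). The other regulators that fell, named after their values were seen, were Ensa (-0.16), the substrate of the Greatwall kinase, Wee1 (-0.20), the kinase that inhibits CDK1, and Cks1b (-0.13). Wee1 was no longer past the threshold without C5, C7, L6 or L7 (adjusted p 0.0759 to 0.146), and Cks1b without any except C6 (0.0633 to 0.15). Of 37 further spindle and centrosome genes 6 fell (16.2%) and 2 rose. Haus7, an augmin subunit gene, gave 35.2 ± 1.85 against 26.7 ± 1.68 CPM (SD), with log2 fold change -0.40, edgeR adjusted p = 0.000208, Psrc1, a spindle-associated protein gene, 88.8 ± 2.41 against 76.8 ± 2.23 CPM (SD), with log2 fold change -0.21, edgeR adjusted p = 0.00146, and Knstrn, the gene of kinastrin, fell as well (log2 fold change -0.22, edgeR adjusted p = 0.0153). The call of Knstrn was lost without C5, C7 or L7 (adjusted p 0.0602 to 0.0755). Named after their values were seen, the other genes that fell on this list were Ckap2 (-0.20), Aspm (-0.14) and Troap (-0.18), and those that rose were the augmin gene Haus6 (0.19) and Nedd1 (0.19), which brings the gamma-tubulin ring to centrosomes. Aspm was no longer past the threshold without C5, C7, L6 or L8 (adjusted p 0.0709 to 0.0993), Troap without any except C6 and C7 (0.0839 to 0.166) and Nedd1 without any except C5 and C6 (0.0506 to 0.146).

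Of all tested genes 6.75% fell and 8.22% rose, and within the members' range of mean level 9.7% fell and 13.7% rose. Of 30 further kinetochore genes 3 fell (10.0%) and 0 rose by edgeR. By edgeR 7 were lower (23.3%, against 13.5% of tested genes) and 2 higher at an unadjusted p under 0.05. With DESeq2 and limma-voom 0 rose as well. Those that fell were Cenpm (log2 fold change -0.33, edgeR adjusted p = 0.0277), Pmf1 (log2 fold change -0.19, edgeR adjusted p = 0.038) and Ska2 (log2 fold change -0.17, edgeR adjusted p = 0.0253), of the inner kinetochore, the MIS12 complex and the SKA complex. Cenpm lost its call without C5, C7, L5 or L7 (adjusted p 0.0924 to 0.123), Pmf1 with any left out except C6 and C8 (0.0544 to 0.169) and Ska2 without C5, C8, L5 or L7 (0.0506 to 0.083). Of 16 APC/C genes 1 fell (6.25%), the cullin subunit gene Anapc2 (log2 fold change -0.11, edgeR adjusted p = 0.0477). Its call was lost with any library left out except C6 (adjusted p 0.0586 to 0.119). Of 20 cohesin and condensin genes 2 fell (10.0%) and 1 rose. The condensin subunit genes Ncapd2 (log2 fold change -0.17, edgeR adjusted p = 0.00139) and Ncaph2 (log2 fold change -0.15, edgeR adjusted p = 0.00671) fell. Wapl, which releases cohesin from chromosomes, rose (log2 fold change 0.17, edgeR adjusted p = 0.0063). Ncapd2 belongs to condensin I, the complex of Ncaph and Ncapg. Of 14 further genes of cytokinesis and abscission 0 fell by edgeR (0 also with DESeq2, limma-voom and at an unadjusted p under 0.05) and 2 rose, the septin genes Sept9 (log2 fold change 0.14, edgeR adjusted p = 0.00129) and Sept11 (log2 fold change 0.17, edgeR adjusted p = 0.0281). The call of Sept11 was lost with any library left out except C6 and L6 (adjusted p 0.0512 to 0.0873).

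Of 24 genes for transcriptional regulators of mitotic genes 2 fell (8.33%, beside 6.75% of all tested genes) and 2 rose (beside 8.22%). Nfya, the DNA-contacting subunit of NF-Y, gave 69.2, 74.8, 71.4 and 71.7 CPM in C5 to C8 and 83.2, 83.5, 87.6 and 83.3 CPM in L5 to L8, without overlap, and rose by 17.6% (0.23 ± 0.043 SE on the log2 scale, edgeR adjusted p = 0.000676). Rbl1, the gene of p107, fell (log2 fold change -0.19, edgeR adjusted p = 0.0108), a call lost without C5 (adjusted p = 0.0549), and E2f2 fell from a low level (12.5 ± 1.26 against 10.0 ± 0.803 CPM, log2 fold change -0.32, edgeR adjusted p = 0.0393), a call lost without C5, C6, L5, L7 or L8 (adjusted p 0.059 to 0.119). E2f8, a repressor of the E2F family named after its values were seen, rose (log2 fold change 0.16, edgeR adjusted p = 0.0405), a call lost with any library left out except C6 and L7 (adjusted p 0.0701 to 0.133). Of 24 S phase genes 2 rose and 1 fell (4.17% fell, beside 6.75% of all tested genes, of which 8.22% rose). The fitted change was below 0 in 19 of the 24 (79.2%, against 51.6% of all tested genes). Their median log2 fold change was -0.055, against -0.007 over all tested genes. The ribonucleotide reductase gene Rrm2 rose by 36.8% (702 ± 10 against 959.9 ± 41.9 CPM, log2 fold change 0.45, edgeR adjusted p = 4.2e-09), the G1/S cyclin gene Ccne1 rose (log2 fold change 0.13, edgeR adjusted p = 0.049; lost with any left out except C6, adjusted p 0.0512 to 0.14) and the replicative helicase gene Mcm6 fell (log2 fold change -0.14, edgeR adjusted p = 0.00401). The summed level of the 24 genes was 3614 to 3706 CPM in non-irradiated and 3748 to 3898 CPM in irradiated libraries. Without Rrm2, left out after its values were seen, it was 2927 to 3003 CPM against 2838 to 2900.0 CPM, a mean difference of -3.4%.

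Libraries held 43786209 to 51734166 counts, with 19034 to 19508 genes detected, and mitochondrial transcripts took 1.5% to 1.62% of the counts. Markers were checked against the label. Of 7 osteocyte markers, summing to 738.5 to 764.8 CPM in non-irradiated and 927.2 to 960.6 CPM in irradiated libraries, Pdpn and Gja1 rose and Phex lay between 12.5 and 16.9 CPM in all libraries, while Sost, Mepe and Fgf23 had 0 counts in all 8 libraries and Dmp1 stayed at or under 0.669 CPM. A count of 0 allows up to 0.0685 CPM in the smallest library (3 counts, covering counting error only) where each count is 1 fragment; were every fragment worth 4 counts, the limit would be 0.274 CPM. Of 8 blood and osteoclast markers 5 were at 0 in every library, the defining genes Ptprc and Adgre1 among them, and their summed level was 17.3 to 20.9 CPM in non-irradiated and 28.1 to 31.4 CPM in irradiated libraries, mostly from Csf1r, which rose (a mean of 14.2 against 26.2 CPM), while Cd68, at 4.45 against 3.52 CPM, did not pass the test although every irradiated library lay below every non-irradiated one. Of 4 chondrocyte markers Acan was at 0 and the sum was 139.6 to 143.6 CPM against 209.6 to 228.5 CPM, nearly all from Sox9, which rose. The 7 osteoblast markers summed to 1148 to 1280.0 CPM against 1231 to 1328 CPM, with Ibsp at 0 and most of the sum from Col1a1, which did not pass the test; Runx2, Alpl and Col1a2 rose (edgeR adjusted p = 0.005, 0.0037 and 0.00151), and all 6 tested were above 0 (median log2 fold change 0.263). The part of these shifts in the mitotic result was not tested. The endothelial, epithelial, adipocyte and muscle lists stayed under 0.72 CPM in sum in every library.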

How the data were processed

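The table deposited by the authors holds estimated counts per gene, whole numbers without normalization, from poly(A)-enriched RNA of 4 non-irradiated and 4 irradiated libraries (43786209 to 51734166 counts). Per the submitters' processing notes, HISAT2 2.2.1, StringTie 2.1.7, Trimmomatic 0.39, FastQC 0.11.9, DESeq2 1.32.0 and the build GRCm39 were used. How they were combined, with which annotation release and whether with strand, is not given in the sources used here. The value 4 occurs 6096 times, against 4006 for 3 and 2428 for 5, so a fragment may add several counts, and 1 alternative divided counts by 4. Columns are numbered 5 to 8 and sample titles 1 to 4, so a column was tied to its group only. Of 55359 identifiers 52083 have a symbol in GENCODE M21, which also gave transcript lengths.

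Genes were kept by filterByExpr (minimum count 10; 15164 genes), scaled by TMM and tested with edgeR 4.0.16 (R 4.3.3; robust quasi-likelihood fit to all 8 libraries, with no covariate beside the group), with Benjamini-Hochberg adjustment and a threshold of 0.05. An SE is the log2 fold change divided by the square root of F. CPM uses TMM-scaled totals, and mean ± SD has n = 4. DESeq2 1.42.0 and limma 3.58.1 served as alternatives. The members, role groups and lists were chosen with earlier results of these data known. In full are given, per role group, up to 4 members past the test by size of change, or, where none passed, the 2 smallest p-values, and always Cdk1, Ccnb1, Plk1, Top2a, Mki67, Foxm1 and Birc5; from each further list, up to 3. Septin2 has 2 identifiers and Lin54 none by that name, and both were left out. Simulated data for this comparison (15175 genes) changed 200 genes and gave all genes the same dispersion, the spread beyond counting error. The test called 3 of 50 genes changed 1.1-fold, 17 of 50 changed 1.2-fold, and 50 of 50 changed 1.5-fold and 2-fold. Each of these calls was in the right direction, and there were 7 false calls.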

Additional observations from a re-analysis of the deposited data

Results flagged for a closer look

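In 148 groups of 4 values (the 53 mitotic genes and the named further genes, in each group of libraries), 9 held a library that stood apart by Dixon's criterion, which compares the gap to the nearest library with the range of the group. Chance alone gives about 1 in 20 such groups.

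Cdk1 stood at 134 CPM in L7, below the 147 to 149 CPM of the other irradiated libraries. Ccnb1 stood at 157 CPM in C8, above the 149 to 150.2 CPM of the other non-irradiated libraries. Ccna2 stood at 269 CPM in L6, above the 255 to 257 CPM of the other irradiated libraries. Ccnf stood at 74.6 CPM in L6, below the 77.6 to 78.1 CPM of the other irradiated libraries. Smc4 stood at 299 CPM in C7, below the 312 to 314 CPM of the other non-irradiated libraries. Cenpa stood at 49.9 CPM in C5, below the 52.4 to 52.9 CPM of the other non-irradiated libraries. Nuf2 stood at 81.4 CPM in C8, above the 74.3 to 74.5 CPM of the other non-irradiated libraries. Ect2 stood at 140.2 CPM in L6, above the 126 to 128 CPM of the other irradiated libraries. Nfya stood at 87.6 CPM in L7, above the 83.2 to 83.5 CPM of the other irradiated libraries. Ccna2, Nfya and Ccnb1 passed the test, and the other 6 genes did not.

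Without L7 the log2 fold change of Cdk1 was 0.006. Of the 9 values L6 gave 3, and L7 and C8 gave 2 each.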

How the results depend on the processing

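Under all 16 alternatives the median log2 fold change of the 53 genes stayed below 0 (-0.115 to -0.079) and 0 members rose. The number of members that fell was 17 with DESeq2, 11 with limma-voom and 16 with upper-quartile scaling. It was 11 with a filter of 1 count, 12 with a filter of 1 CPM and 12 with counts divided by 4. In this order 7.92%, 6.21%, 7.48%, 3.77%, 8.32% and 8.2% of all tested genes fell, beside 6.75% in the main run. With library totals alone 21 members fell, with a median of -0.115. That scale moved the median of all tested genes from -0.007 to -0.029. The calls over all tested genes moved from 1247 higher and 1023 lower to 1050 higher and 1345 lower. Leaving out 1 library gave 7 to 12 members that fell, and the median was then -0.103 to -0.079. Of all tested genes 4.5% to 7.57% fell in those runs. The replicate block by column number gave 8 members, while 4.95% of all tested genes fell. Same-numbered libraries had correlations of -0.046 to 0.001, and 0 of 8 libraries correlated best with their own number. No pairing by number was seen, and the reason for the loss of calls under the block was not tested. Of the 40 members not past the test, 8 passed under at least 1 alternative and 32 under none. Among the further genes, Cenpm, Pmf1, Wee1, Troap, E2f2 and E2f8 also lost their calls with limma-voom (limma-voom adjusted p 0.0502 to 0.0704).

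Some genes near 0 changed sign. Foxm1 was 0.002 with DESeq2, 0.001 with a filter of 1 count, 0.005 with a filter of 1 CPM and with counts divided by 4, and it was positive without C6, L6 or L7 (0.019, 0.011 and 0.001; -0.011 to 0.019 over all libraries left out in turn). With 1 library left out Mki67 ran from -0.058 to 0.008 (positive without L6 or L8), Cdk1 from -0.045 to 0.006 (without L7), Ttk from -0.062 to 0.012 (without C5) and Kif18a from -0.024 to 0.083 (negative without C7 or L5). Racgap1 was -0.013 with library totals alone. None of these values passed the test. The cause was not tested. Of the 13 called genes 12 changed by 1.08- to 1.14-fold and Nusap1 by 1.24-fold. On simulated data 3 of 50 genes changed 1.1-fold and 17 of 50 changed 1.2-fold were called. The simulation changed 200 genes and gave all the same dispersion, while 2270 genes passed the test in the real data. Its adjusted threshold was therefore not that of the real data. How often the test misses changes of this size here was not measured.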

Other observations

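Promoter letters were also set beside the fitted changes of tested genes outside the 53 that hold both motifs or neither. Genes with only a CHR or only a CCAAT box were not compared. This comparison was chosen after the data were seen and is given without a test. Of 675 tested genes outside the 53 whose promoter holds both a CHR and a CCAAT box, 76 fell (11.3%) and 48 rose (7.11%), with a median log2 fold change of -0.043. Of 4975 such genes with neither motif, 325 fell (6.53%) and 496 rose (9.97%), with a median of 0.003. Where a CHR lay near the gene start beside a CCAAT box (180 genes outside the 53), 20 fell (11.1%) and 13 rose (7.22%), with a median of -0.048. Of all tested genes 6.75% fell and 8.22% rose, and within the members' range of mean level 9.7% fell and 13.7% rose. Only the 53 were left out, so mitotic genes of the further lists may be among the genes compared.

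Of the 24 transcriptional regulators 20 did not pass the test. Cdkn1a, the gene of the CDK inhibitor p21, was among them, at 398 ± 15.3 against 382 ± 12.9 CPM (SD) (-0.058 ± 0.034 SE on the log2 scale, edgeR adjusted p = 0.279). In 3 of the 20 the groups did not overlap. Mybl2, the gene of B-MYB, gave 30.7, 30.9, 31.7 and 29.7 CPM in C5 to C8 and 34.5, 33.6, 33.9 and 34.8 CPM in L5 to L8 (0.15 ± 0.056 SE on the log2 scale, edgeR adjusted p = 0.0703). The others were E2f4 (log2 fold change 0.13, edgeR adjusted p = 0.0584) and E2f6 (log2 fold change -0.12, edgeR adjusted p = 0.0702). These genes were named after their values were seen.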
